A study of Mus musculus with 20 samples.

Results

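Apoe, Clu, Apod, Abca1, Abcg1, Lrp1, Lcat and Mfge8 encode carriers of lipid outside the cell and the proteins that load them, take them up or bind to lipid on membranes. They were taken by gene symbol, and all 8 were found among the 27998 genes listed for the single-cell libraries and among the 24062 genes of the RNA-seq of cultured cells. Single-cell RNA-seq (scRNA-seq) and single-cell ATAC-seq (scATAC-seq, which counts DNA fragments from open chromatin) were each performed on 1 library per age, from EGFP+ cells of the dentate gyrus (DG) of Nestin-EGFP mice at postnatal day 5 (P5), 12 weeks (12w) and 24 weeks (24w). All 3 ages carried the transgene, in which the Nestin promoter drives EGFP. The sort kept viable cells with EGFP, and cells of blood vessels are among them. RNA-seq was performed on cultured neural stem cells (NSCs) infected with a lentivirus that carried an shRNA against Setd8, a histone H4 lysine 20 methyltransferase, or a control shRNA, and selected with puromycin. The study's methods describe these cultures as a line from the embryonic cortex after many passages, kept in EGF and bFGF, whereas the labels give hippocampus as the tissue.

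Cholesterol hardly crosses the blood-brain barrier, so the brain makes its own and moves it between cells on lipoprotein particles. Astrocytes are the main makers of these particles. APOE is their main protein, with CLU (apolipoprotein J) and APOD, a small lipid-binding lipocalin, as further carriers. The transporters ABCA1 and ABCG1 pass cholesterol and phospholipid from the cell to the particle, LCAT esterifies the cholesterol on it, and LRP1 is an endocytic receptor for APOE. MFGE8 is a secreted bridging protein that binds phosphatidylserine on dying cells and integrins on phagocytes.

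The positions are those of mouse build GRCm38, in the GENCODE M21 annotation. Apoe lies at chr7:19696109-19699188 on the minus strand and Mfge8 at chr7:79133768-79149060, also on the minus strand. Clu lies at chr14:65968483-65981547 on the plus strand and Abcg1 at chr17:31057675-31117988 on the plus strand. The other 4 genes are on the minus strand, Apod at chr16:31296192-31314808, Abca1 at chr4:53030787-53159895, Lrp1 at chr10:127538161-127621148 and Lcat at chr8:105939551-105943382.

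The 250 bases before the start of 4 of the genes are printed here because the results turn on their start region or their transcript. The sequences are from RefSeq (GRCm38.p6), in which 6 of the 8 genes were matched, all but Clu and Abcg1, and run 5′ to 3′ on the strand of the gene. Capitals mark matches to the motifs that were searched.
Apoe, chr7:19699189-19699438: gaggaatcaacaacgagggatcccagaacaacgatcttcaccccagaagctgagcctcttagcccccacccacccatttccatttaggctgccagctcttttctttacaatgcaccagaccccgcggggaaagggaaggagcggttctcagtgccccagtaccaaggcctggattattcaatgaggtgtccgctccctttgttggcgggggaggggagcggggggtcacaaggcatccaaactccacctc
Apod, chr16:31314809-31315058: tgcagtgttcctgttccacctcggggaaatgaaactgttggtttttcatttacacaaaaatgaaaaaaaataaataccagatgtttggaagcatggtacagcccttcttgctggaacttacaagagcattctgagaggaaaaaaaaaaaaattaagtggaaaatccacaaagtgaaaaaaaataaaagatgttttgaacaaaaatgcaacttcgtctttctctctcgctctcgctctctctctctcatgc
Abca1, chr4:53159896-53160145: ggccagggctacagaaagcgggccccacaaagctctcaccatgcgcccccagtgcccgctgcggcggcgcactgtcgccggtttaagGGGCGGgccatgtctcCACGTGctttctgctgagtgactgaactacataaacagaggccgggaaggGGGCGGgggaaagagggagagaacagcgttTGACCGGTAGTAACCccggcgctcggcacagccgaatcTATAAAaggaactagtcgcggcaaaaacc
Mfge8, chr7:79149061-79149310: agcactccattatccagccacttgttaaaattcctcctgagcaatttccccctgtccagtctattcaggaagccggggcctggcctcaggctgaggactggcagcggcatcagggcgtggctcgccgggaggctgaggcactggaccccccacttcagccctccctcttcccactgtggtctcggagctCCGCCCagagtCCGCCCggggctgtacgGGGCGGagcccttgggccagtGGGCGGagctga
Abca1 was the one gene of these with matches to 4 kinds of motif. It held 2 GC boxes (GGGCGG), 1 E-box (CACGTG), 1 TATA box (TATAAA) from 29 to 24 bases before the start, and 1 repeat of the form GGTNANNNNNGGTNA, found on the reverse strand from 67 to 53 bases before the start. Direct repeats of this form are known as elements for the liver X receptors, which sense oxysterols. Among 32841 promoters of this length, 0.621% held this repeat, 12.4% the TATA box, 6.02% the E-box and 32.7% the GC box, counted on both strands. Mfge8 held 4 GC boxes. Apoe and Apod held no match to these, to the CCAAT box (CCAAT), to the AP-1 site (TGANTCA) or to the full NFI site (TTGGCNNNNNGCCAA) in this window. RefSeq lists further starts for Apoe, and the one printed is the start of the GENCODE gene. Before the further start at chr7:19698621, 2 overlapping TATA box matches lay from 100 to 91 bases away, and the start at chr7:19698398 held no match. Lrp1 held 1 GC box, and Lcat held 1 CCAAT box from 80 to 76 bases before its RefSeq start.

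The filters left 12752 cells from the P5 library, 5271 from the 12w library and 2794 from the 24w library, with medians of 4261, 2271 and 2178 unique molecular identifiers (UMIs, each the count of 1 captured transcript) per cell. Cells were clustered without the 8 genes and the listed lipid genes, and clusters were called X-like from marker genes. In the order of age, the NSC-like class held 1028, 300 and 89 cells, and the astrocyte-like (AS-like) class 4839, 493 and 150. The pericyte-like (PC-like) class was the largest of the adult libraries, with 2448 cells at 12w and 1747 at 24w against 521 at P5, when other clusters made up most of it. Levels are UMIs of a gene per 1000000 UMIs of a class (CPM), and intervals in parentheses are 95% intervals for counting error only, since 1 library per age gives no replicate error and allows no test. Xist without any Y-linked gene was seen in 20.1%, 92.4% and 0.0358% of cells in the order of age, so that age and sex cannot be told apart except where P5 cells of like sex were used. Haemoglobin genes led 1 of the AS-like clusters, and their summed level in AS-like cells was 1237, 7 and 75 CPM in the order of age. The P5 cells shared 86 barcodes with the cells at 12w and 57 with those at 24w.

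The highest levels of Apoe were in AS-like cells at each age, with 17865, 31884 and 32824 CPM in the order of age. NSC-like cells came next at each age, with 7133, 19367 and 21471 CPM. Ependymal-like (EDC-like) cells, of the ciliated lining of the ventricles, had 5224, 8884 and 10407 CPM. Immature neuron-like cells of the earlier stage (IMN1-like) were lowest among the neurogenic classes, with 1191, 500 and 484 CPM. The order AS-like, NSC-like, EDC-like held at every age with no overlap of the counting intervals.

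Clu was highest in astroglial and ependymal cells, in an order that differed between ages. At P5 it had 1261 CPM (1203 to 1322) in EDC-like cells, 1092 CPM (1078 to 1106) in AS-like cells and 743 CPM (718 to 770) in NSC-like cells. At 12w it had 7330 CPM in AS-like cells, 2874 CPM in NSC-like and 2810 CPM in EDC-like cells. In the 24w library the same classes had 6665, 2807 and 2921 CPM. EDC-like cells thus stood highest at P5 and AS-like cells at both adult ages, when the counting intervals of the other 2 classes overlapped. Lcat was highest in AS-like cells and next in NSC-like cells. With the 3 ages summed, it had 162 CPM (157 to 167) in AS-like cells, 104 CPM (95.7 to 113) in NSC-like cells and at most 27.3 CPM in any other class, with 17.1 CPM in EDC-like cells. The counting intervals of both classes lay above those of the other 12, and AS-like cells had more than NSC-like cells at each age.

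Mfge8 was spread over astroglial and vascular cells. AS-like cells had the most at each age, with 1584, 2980 and 3463 CPM, and NSC-like cells came next, with 901, 2342 and 2563 CPM. PC-like cells had 836, 1611 and 1935 CPM, and the class of vascular smooth muscle-like (VSMC-like) cells 756, 1660 and 2163 CPM. The intervals of the NSC-like class lay above those of both vascular classes at each age, and the 2 vascular classes overlapped at P5 and 12w. Cycling progenitor-like (NPC-like) cells had 583, 408 and 493 CPM.

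The transporters and the receptor had other patterns. Abca1 stood at 144 CPM (139 to 149) in AS-like cells at P5, above the 77.0 CPM (63.0 to 93.1) of EDC-like cells. At the adult ages EDC-like cells were above AS-like cells, with 87.5 CPM (42.0 to 161) against 61.1 CPM (49.0 to 75.1) at 12w and 78.8 CPM (48.8 to 121) against 43.6 CPM (25.9 to 68.9) at 24w, and these intervals overlapped. Microglia-like cells held 12 UMIs of Abca1 over all ages, 99.8 CPM (51.6 to 174), too few to be placed in this order. Abcg1 was higher in endothelial-like (EC-like) cells than in oligodendrocyte precursor-like (OPC-like) cells at P5, with 70.7 CPM (32.3 to 134) against 23.4 CPM (20.1 to 27.1). At 12w the order was the other way, with 41.7 CPM (20.8 to 74.7) against 74.6 CPM (30.0 to 154), and the intervals overlapped. In NSC-like cells Abcg1 had 9, 2 and 0 UMIs in the order of age, and 3 UMIs at 24w would have been 9.88 CPM. Lrp1 had 312, 437 and 469 CPM in OPC-like cells in the order of age, 165, 456 and 278 CPM in vascular leptomeningeal-like (VLMC-like) cells and 194, 165 and 216 CPM in AS-like cells. OPC-like cells were highest at P5 and 24w, and their intervals overlapped those of VLMC-like cells at both adult ages.

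Apod was highest in cells of the meninges. VLMC-like cells had 606 CPM (479 to 758) at P5, 10819 CPM (9686 to 12047) at 12w and 9618 CPM (8444 to 10909) at 24w, from 17, 11 and 9 cells. With each cell thinned to 1000 UMIs, 41.2% of them had an Apod UMI at P5 (18.4 to 67.1) and 100% at both adult ages. Oligodendrocyte-like (OL-like) cells, which make myelin, held 9, 15 and 39 Apod UMIs, or 9.24, 68.0 and 277 CPM. NSC-like cells held 1, 4 and 8 UMIs.

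**Figure D1:**
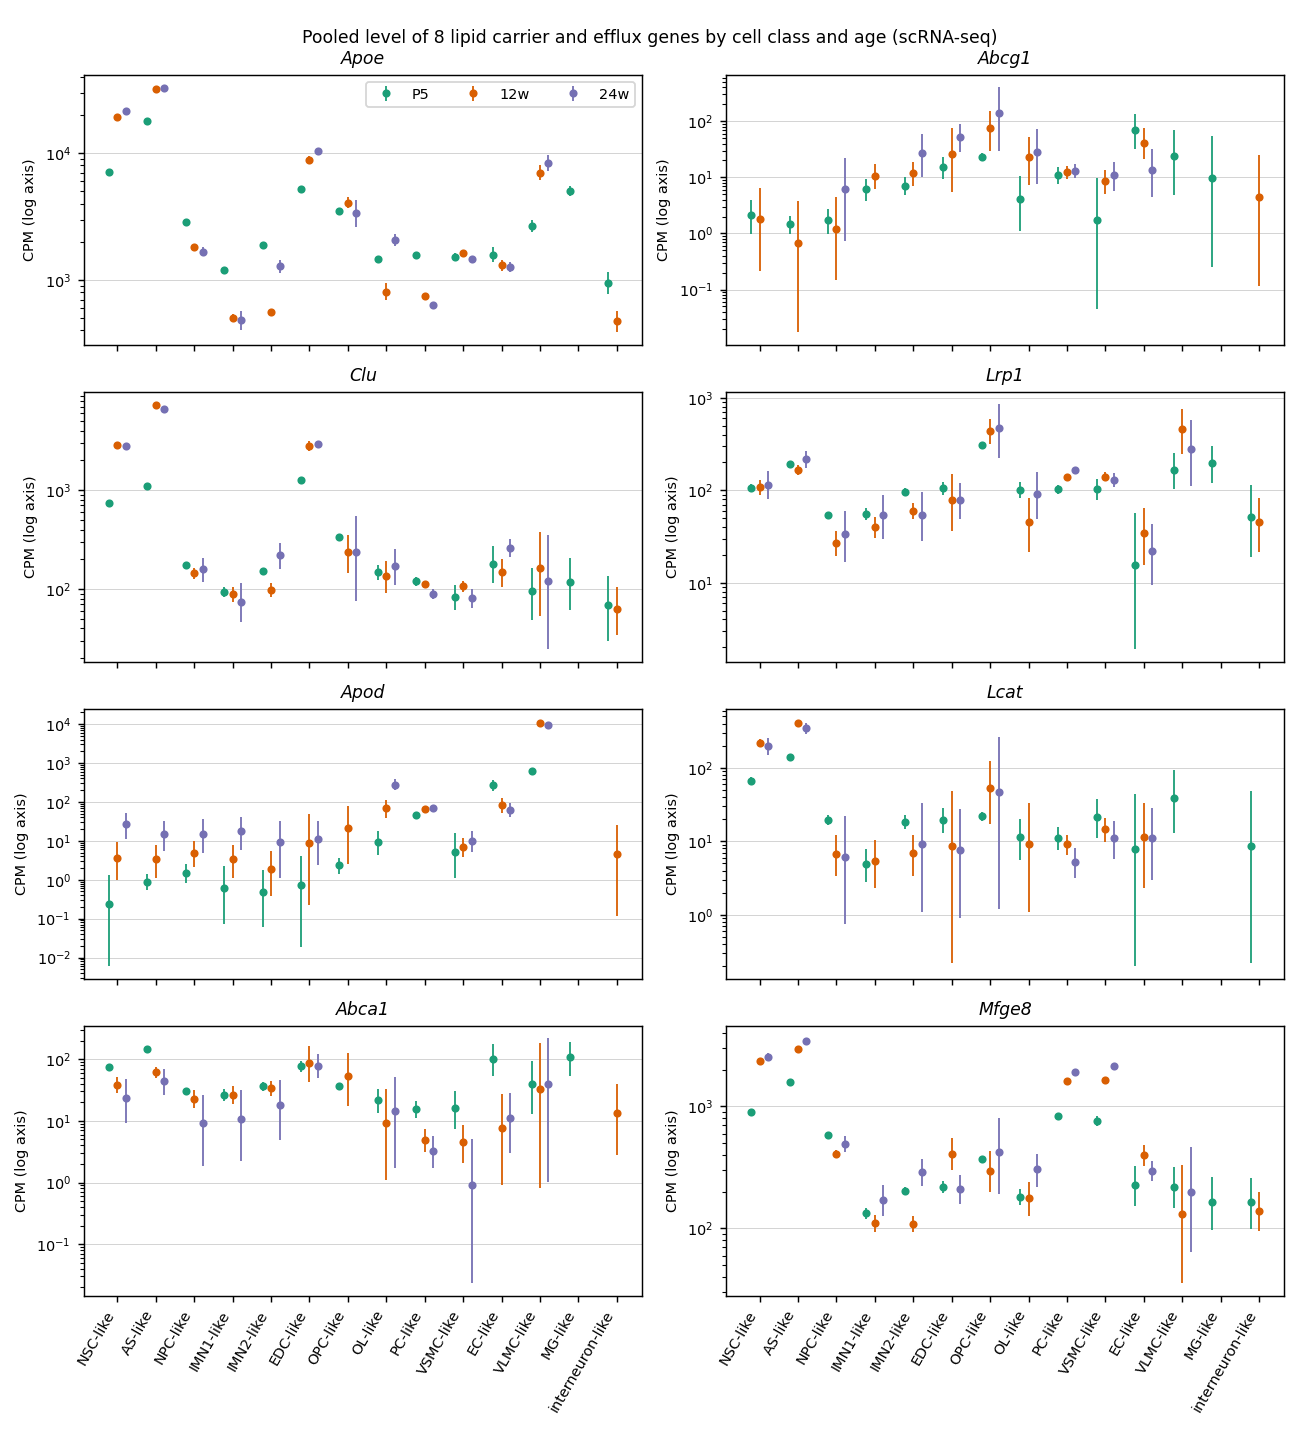
Level of each of the 8 genes in 14 cell classes, as CPM from pooled UMIs (log axis), with 1 point per age and 95% counting intervals; points at 0 UMIs and groups without enough cells are not drawn. Apoe, Clu and Lcat are highest in AS-like and NSC-like cells and, for Apoe and Clu, EDC-like cells, while Apod is highest in VLMC-like cells and Lrp1, at P5 and 24w, in OPC-like cells.

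The age comparison asked how the level of each gene within a class differed between the neonate and the adult libraries. A gene was counted as higher or lower when it was at least 2-fold apart from P5 in both adult libraries and in 1 direction, with a minimum of 20 UMIs on the higher side. This is a rule of size and not a test, and both ratios share the P5 library. It was met by 13 of the 72 pairs of a gene and a class that were compared, over 9 classes with at least 20 cells at each age.

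In NSC-like cells, 4 of the 8 genes were higher by this rule and 0 lower, where 10.5% of the 2783 genes with enough UMIs to be called higher were so, and 4.80% of the 10421 with enough to be called lower. The shares given for other classes, and for start regions, likewise have as their base the genes with enough counts to be called in that direction. The 4 genes were Clu, Apoe, Lcat and Mfge8. Here and in AS-like cells, Apod, Abca1 and Abcg1 had too few UMIs to be called higher. Clu had 743, 2874 and 2807 CPM, and its 2 ratios were 3.87 (3.68 to 4.06) and 3.78 (3.5 to 4.07). For Apoe the ratios were 2.72 (2.67 to 2.76) and 3.01 (2.93 to 3.09). Lcat, the esterifying enzyme, had 66.5, 220 and 198 CPM, with ratios of 3.31 (2.78 to 3.94) and 2.97 (2.21 to 3.94). Mfge8 had 901, 2342 and 2563 CPM, with ratios of 2.60 (2.47 to 2.73) and 2.84 (2.63 to 3.07). In each of the 4 genes both adult libraries were far above P5 and close to each other.

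Lrp1 and Abca1 behaved otherwise in NSC-like cells. Lrp1 had 106, 108 and 115 CPM, and its ratios of 1.02 (0.826 to 1.25) and 1.08 (0.745 to 1.53) left a difference of 1.6-fold or more outside the counting intervals. Abca1, the transporter that loads APOE, was lower at both adult ages, with 74.3 CPM from 315 UMIs at P5, 38.5 CPM from 43 UMIs at 12w and 23.1 CPM from 7 UMIs at 24w. Its ratios were 0.518 (0.367 to 0.714) and 0.310 (0.124 to 0.647), so that it missed the rule at 12w. Among cells with at least 2000 UMIs the ratios were 0.48 and 0.35, within the rule. The median log2 ratio over the 6 of 8 genes with enough UMIs was 1.41 at 12w and 1.54 at 24w, against 0.02 and 0.09 over 10436 genes.

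In AS-like cells Apoe, Clu, Lcat, Mfge8 and Abca1 stood on the same side of P5 as in NSC-like cells, with other sizes. There, 2 of the 8 genes were higher and 1 lower, where 14.0% of the genes that could be called higher were so and 6.04% of those that could be called lower. Clu had 1092, 7330 and 6665 CPM, ratios of 6.71 (6.56 to 6.87) and 6.10 (5.87 to 6.35). Lcat had 142, 401 and 347 CPM, ratios of 2.82 and 2.44. Apoe and Mfge8 did not reach 2-fold at both ages, with ratios of 1.78 and 1.84 for Apoe and 1.88 and 2.19 for Mfge8. Abca1 was the gene that was lower, with 144 CPM from 3041 UMIs at P5, 61.1 CPM from 89 UMIs at 12w and 43.6 CPM from 18 UMIs at 24w, ratios of 0.424 (0.340 to 0.524) and 0.303 (0.179 to 0.480). Abca1 was thus lower, and Apoe higher, in both adult libraries than at P5. The AS-like class was made of several clusters, and in the largest of them, cluster 0, Clu had 1070, 7017 and 6268 CPM and Apoe 16422, 30349 and 31276 CPM. Clu was higher at 12w than at P5 in each of the 4 clusters. Abca1 had 150, 56.7 and 47.5 CPM in cluster 0. At P5 and 12w it had 163 and 92.4 CPM in cluster 5, 133 and 62.8 CPM in cluster 10 and 77.3 and 43.0 CPM in cluster 13. In these other 3 clusters, with 17, 4 and 2 UMIs of Abca1 at 12w, its counting intervals at P5 and 12w overlapped. Apoe and Mfge8 were closer to P5 in some of these clusters than in the class. Cluster 5 was the one led by haemoglobin genes, and its cells had a median of 0.533 times the median UMIs of their age. In it Apoe had 35144, 43284 and 42180 CPM, and Lcat 218, 625 and 269 CPM, the last from 12 UMIs. In cluster 13, with 517 cells at P5 and 34 at 12w, Apoe had 18848 and 19237 CPM and Mfge8 1094 and 1053 CPM. The part of the mix of clusters in the class ratios was not tested.

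Depth differed between ages, so each cell was thinned to 1000 UMIs and the share of cells with a UMI was taken. In the order of age, Clu was then seen in 48.2% (45.1 to 51.3), 80.7% (75.7 to 85.0) and 78.7% (68.7 to 86.6) of NSC-like cells, and in 86.3%, 97.7% and 97.8% before thinning. For Lcat the thinned shares were 6.42%, 14.7% and 15.7%, and for Mfge8 57.6%, 81.3% and 91.0%. Abca1 was seen in 13.1% (12.1 to 14.1), 5.48% (3.64 to 7.87) and 6.0% (2.78 to 11.1) of AS-like cells. Apoe was seen in 98.5% or more of NSC-like cells at each age and in 64.7%, 41.6% and 41.2% of IMN1-like cells, a class of neurons that should hold little of it. For Apoe a share of cells therefore said little, and its level was used.

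Free RNA, which gives UMIs to cells that do not make a transcript, was read from barcodes with 10 to 100 UMIs at 12w and 24w, and could not be read at P5, whose file held no such barcodes. It was scaled with vascular markers to 10.2% of the UMIs of NSC-like cells at 12w and 14.8% at 24w. The prediction equalled 3.46% and 3.73% of the Apoe level of NSC-like cells, and 3.77% and 5.11% of their Clu level. For Abca1 of AS-like cells the shares were 4.04% and 5.42%. The prediction reached 94.2% and 129% of the Apoe level of IMN1-like cells, so that their adult Apoe was at the level of free RNA. The part of free RNA in their Apoe at P5 is not known.

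Outside the astroglial classes, genes met the rule as lower in 3 classes. Apoe met the rule as lower in IMN1-like cells, with ratios of 0.420 (0.388 to 0.454) and 0.407 (0.340 to 0.483), where 2.70% of genes were lower and 6.20% higher. The sum of the 9 astrocyte markers in these cells was 127, 40 and 35.6 CPM in the order of age. Lcat did so in NPC-like cells, from 183 UMIs at P5 to 11 and 2, where 4.50% of genes were lower and 6.10% higher, and free RNA was predicted to give 98.1% and 67.7% of its adult level. Without cells that held haemoglobin UMIs its ratios were 0.365 and 0.653, outside the rule, and the astrocyte sum in NPC-like cells was 335, 113 and 110 CPM. In PC-like cells, 0 of the 8 genes were higher and 2 lower, where 15.5% of genes were higher and 12.4% lower. Most PC-like cells at P5 were in clusters 7 and 22, and most adult ones in clusters 1 and 4. The 2 genes were Apoe, with 1586, 750 and 640 CPM, and Abca1, with 46, 23 and 12 UMIs or 15.5, 4.88 and 3.28 CPM. Both missed the rule when the largest PC-like cluster, with 18 cells at P5, was taken alone, where the ratios for Apoe were 0.77 and 0.64. For Abca1 they were 0.129 and 0.097, and the 2 UMIs at P5 were under the minimum. In cluster 7, with 354, 439 and 237 cells in the order of age, Apoe had 1698, 862 and 626 CPM and Abca1 26, 9 and 2 UMIs. Apoe also missed the rule without cells that held haemoglobin UMIs (0.501 and 0.424), whereas Abca1 missed it by the count of UMIs alone, at a minimum of 50 UMIs and against P5 cells of like sex, which held 11 UMIs of it and gave ratios of 0.160 and 0.276. In PC-like cells the astrocyte sum was 153, 46.3 and 50.4 CPM and the sum of cycling progenitor markers 1611, 172 and 167 CPM. The part of these marker shifts in the lower levels was not tested. Free RNA was not predicted for PC-like cells, since vascular markers set its scale.

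Clu also met the rule in EDC-like cells and Mfge8 in VSMC-like cells. In EDC-like cells Clu had 1261, 2810 and 2921 CPM, ratios of 2.23 (1.97 to 2.51) and 2.32 (2.12 to 2.52), where 8.02% of genes were higher and 4.91% lower. Against P5 cells of like sex, the ratios were 1.88 and 2.47, and the sum of ependymal markers in the class was 6516, 10284 and 11011 CPM. In VSMC-like cells Mfge8 had 756, 1660 and 2163 CPM, ratios of 2.2 (1.98 to 2.43) and 2.86 (2.58 to 3.18), where 17.1% of genes were higher and 9.85% lower. Against P5 cells of like sex they were 1.73 and 3.03, and the sum of smooth muscle markers was 10744, 16141 and 14763 CPM. In PC-like cells Mfge8 stood at ratios of 1.93 and 2.31, just outside the rule at 12w. None of the 8 genes met the rule in OL-like cells or in immature neuron-like cells of the later stage (IMN2-like). Of the genes that could be called in each direction, 11.9% were higher and 6.58% lower in the former, and 6.17% and 4.25% in the latter. In both classes, Apoe, Clu and Mfge8 alone among the 8 had enough UMIs to be called higher. Apod in OL-like cells had ratios of 7.36 (3.02 to 19.1) and 29.9 (14.3 to 70.3), and missed the rule because its 15 UMIs at 12w were under the minimum of 20.

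Markers of other cell types moved with age inside the NSC-like class. The summed level of the 9 astrocyte markers in it was 563, 946 and 1348 CPM in the order of age, that of the 9 NSC markers 1579, 3904 and 2629 CPM and that of the 7 pericyte markers 315, 1266 and 2998 CPM. Other sums were lower at the adult ages, with 538, 59.1 and 59.3 CPM for the 8 OPC markers and 423, 246 and 115 CPM for the 6 IMN1 markers. In AS-like cells the astrocyte sum was 1899, 2369 and 2700 CPM and the NSC sum 414, 2203 and 1643 CPM. The pericyte sum in AS-like cells was 157, 1408 and 2896 CPM, that of oligodendrocyte markers 55.1, 351 and 133 CPM and that of OPC markers 1040, 329 and 182 CPM. The part of these shifts in the ratios of the lipid genes was not tested. In the largest NSC-like cluster taken alone, Apoe had 6653, 19301 and 21508 CPM and Clu 626, 2871 and 2751 CPM. Mfge8 had 884, 2325 and 2554 CPM there, Lcat 85.1, 223 and 204 CPM and Abca1 79, 37 and 24 CPM. The other NSC-like cluster, with 346, 16 and 4 cells in the order of age, had 24.6 CPM of Lcat at P5. The part of this mix of clusters in the class ratios was not tested.

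**Figure D2:**
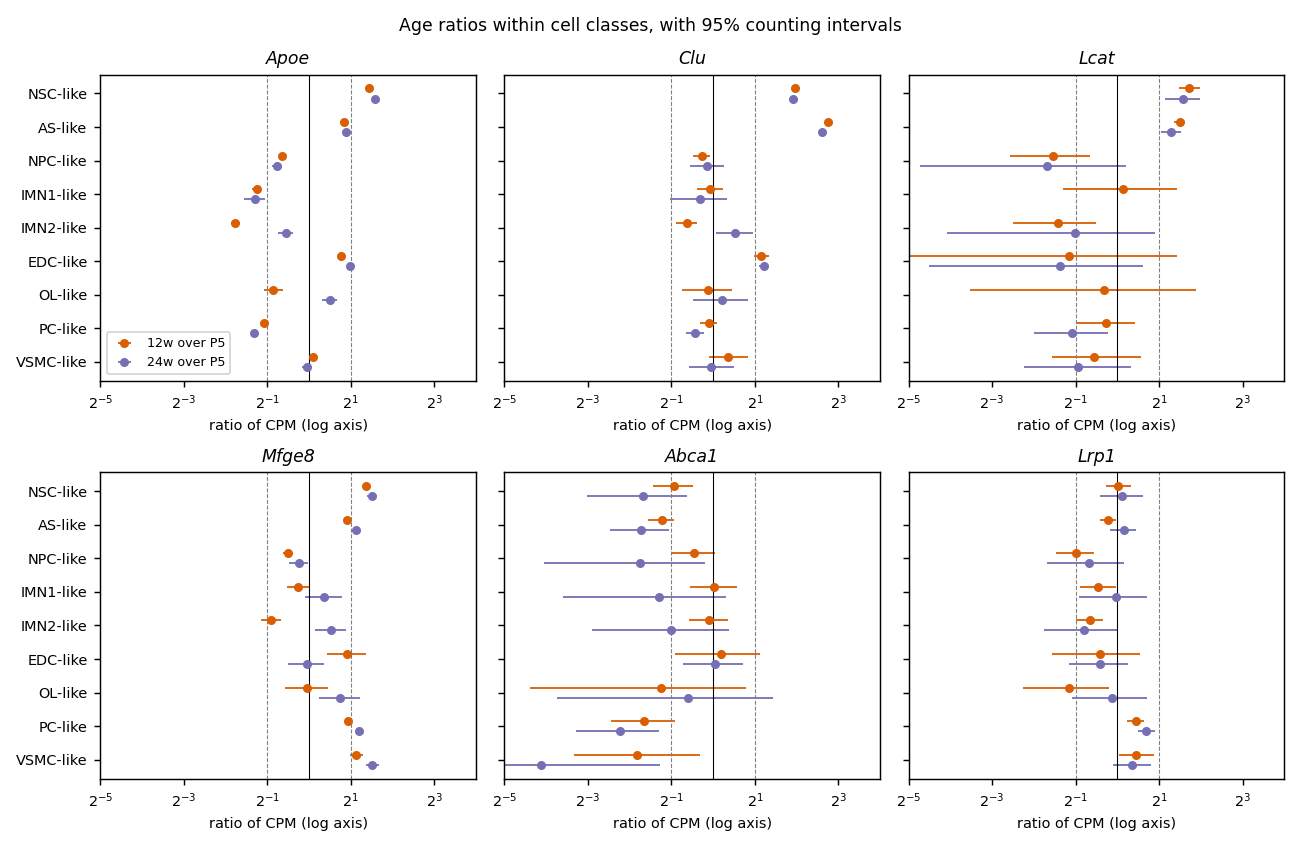
Ratio of the level at 12w and at 24w to that at P5 for 6 of the genes in 9 cell classes (log axis), with 95% counting intervals and dashed lines at 2-fold. Apoe, Clu, Lcat and Mfge8 stand to the right of 2-fold in NSC-like cells at both ages, and Abca1 to the left in AS-like cells.

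The patterns of the 8 genes over 27 groups of a class and an age, each with at least 50 cells, were compared with those of 12374 genes as a description, since the groups share libraries. Apoe was most like Gja1 (Pearson r = 0.96 on log2(CPM + 10)), Gabrb1 and Fgfr3, and Clu most like Cml1 (0.98), Mt1 and Ngef. Lcat was most like Eva1a (0.97), Cldn10 and Grhl1, and Mfge8 most like Oaf (0.93) and Cd302. Abca1 was most like Thbs3 (0.89), Acot1 and Fads1, Lrp1 most like Tmem246 (0.88), Atraid and Spred1, Apod most like Emcn (0.93), Slc22a8 and Unc5b, and Abcg1 most like Zfp280b (0.77), Ttc17 and Pvr. Within the 8, the r was 0.95 between Apoe and Clu, 0.91 between Apoe and Lcat and -0.06 between Abca1 and Mfge8. The lowest were -0.61 between Abca1 and Apod and -0.47 between Abcg1 and Lcat.

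Other genes of lipid transport were taken from 6 lists and counted in NSC-like cells by the same rule, beside the shares of 10.5% higher and 4.80% lower among the genes that could be called. Of the 13 lipoprotein receptors and their regulators, 8 had enough UMIs, 0 were higher and 2 lower. These were the receptors for APOE and reelin Vldlr, with 37.5, 13.4 and 9.88 CPM, and Lrp8, with 29, 10.7 and 6.59 CPM, of which 23.6% and 42.4% at the adult ages was predicted as free RNA. At 24w Vldlr rested on 3 UMIs and Lrp8 on fewer. Of 10 other transporters and lipases 5 were compared, and Pltp, which moves phospholipid between lipoproteins, was higher, with 14.2, 38.5 and 98.8 CPM, and free RNA at 22.1% and 33.7%. Of 9 sterol-sensing receptors and oxysterol enzymes 5 were compared and 2 were higher. Cyp46a1, the cholesterol 24-hydroxylase, had 27.4, 61.8 and 72.5 CPM, and Cyp7b1, an oxysterol hydroxylase, 19.6, 49.2 and 69.2 CPM. Of the 10 genes for handling cholesterol within the cell, all compared, 0 were higher and 1 was lower, the sterol carrier Stard4, with 28.3, 8.95 and 9.88 CPM from 120, 10 and 3 UMIs. Of 13 other apolipoproteins 1 had enough UMIs, and neither it nor any of the 7 compared of 9 partners of Mfge8 met the rule, although the median log2 ratio of the partners was 0.83 at 12w and 1.27 at 24w. The median was 1.18 and 1.43 for the sterol-sensing receptors and oxysterol enzymes, 0.47 and 0.58 for cholesterol handling, 0.37 and 0.10 for transporters and lipases and 0.00 and 0.11 for the receptors, where all genes had 0.02 and 0.09.

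The RNA-seq comparison asked which genes differed in cultured NSCs after Setd8 knockdown. Transcript levels normalised for length and depth to a sum of 1000000 (TPM) were read for 4 libraries, and their grouping had to be taken from the study's table of values, since labels and values disagreed. The libraries labelled Ctrl_3, Setd8KD_1 and Setd8KD_2 each matched a control column of that table in 170 of 170 genes, and the library labelled Setd8KD_3 matched a knockdown column in 170 of 170. The files labelled Ctrl_1 and Ctrl_2 hold gene symbols and lengths. The labels place these cells 3 days after infection and the table is headed day 2. Setd8 itself, the targeted gene, had 154, 143 and 143 TPM in the libraries labelled Ctrl_3, Setd8KD_1 and Setd8KD_2 and 36.4 TPM in the library labelled Setd8KD_3 (limma, log2 difference -1.98, SE 0.0674, adjusted p = 0.000113). With 1 knockdown library, the test assumes that it varies like the 3 controls, and nothing says that the libraries came from separate cultures, so the p-values measure only the spread between these samples, which may be technical.

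Of the 8 genes, 6 had a mean of at least 1 TPM, and all 6 were higher in the knockdown library at an adjusted p under 0.05, where 20% of 12703 genes were higher and 21.7% lower. The median log2 difference over these 6 was 0.99, against 0.00 over all genes tested. The knockdown library was above all 3 controls for 41.3% of genes, and for each of these 6. On reads recovered from the TPM, all 6 were also higher by edgeR, which called 22.1% of genes higher, and by DESeq2, which called 15.9%. Values are given in the order Ctrl_3, Setd8KD_1, Setd8KD_2 and then Setd8KD_3, the knockdown library, and log2 differences are on the log2(TPM + 1) scale.

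Among the carriers, Apoe had 185, 203 and 196 TPM in the controls and 572 TPM with knockdown, 2.94 times the control mean (log2 1.55, SE 0.0650, adjusted p = 0.000113). Clu had 24.6, 28.4 and 26.9 TPM against 42.0 TPM, 1.58 times the control mean (log2 0.64, SE 0.0966, adjusted p = 0.00290). The lipoprotein enzyme Lcat had 6.99, 6.95 and 5.49 TPM against 20.6 TPM, 3.19 times (log2 1.54, SE 0.151, adjusted p = 0.000615). Lcat and Apoe had the highest ratios of the 8 genes among those tested.

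The transporter Abca1 had 7.13, 9.99 and 8.53 TPM in the controls and 18.2 TPM with knockdown, 2.13 times (log2 1.02, SE 0.170, adjusted p = 0.00428). Abca1 stood higher with knockdown in culture, while in AS-like cells it stood lower in the adult than in the P5 library. Lrp1, the receptor, had 4.17, 6.84 and 6.31 TPM against 12.0 TPM, 2.09 times (log2 0.97, SE 0.234, adjusted p = 0.0171), and its controls were spread most widely of the 6. Mfge8 had 164, 169 and 167 TPM against 213 TPM, 1.28 times (log2 0.35, SE 0.0524, adjusted p = 0.00278), a small difference with tight controls. Apod, with 15, 22 and 9 reads in the controls and 8 with knockdown, and Abcg1, with 0, 1 and 2 reads and 4 with knockdown, were under the 1 TPM limit and were not tested by limma. On recovered reads Apod passed the filters of edgeR (log2 -0.93, adjusted p = 0.229) and DESeq2 (log2 -0.94, adjusted p = 0.484), and neither called it. The calls for Clu, Abca1, Lrp1 and Lcat depended on the filter on low values, since without it their adjusted p-values were 0.081, 0.126, 0.235 and 0.0544.

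**Figure D3:**
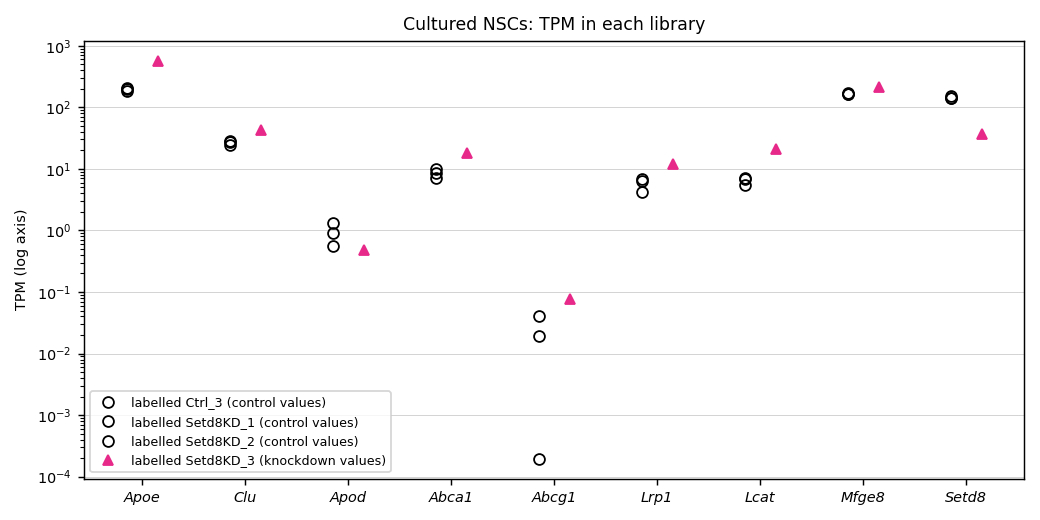
TPM of the 8 genes and of Setd8 in each of 4 RNA-seq libraries of cultured NSCs (log axis), circles for the 3 libraries with control values and triangles for the 1 with knockdown values, named by their labels. The lowest circle of Abcg1 stands for 0 reads, and the triangle is above the 3 circles for Apoe, Clu, Abca1, Lrp1, Lcat and Mfge8.

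Markers of cell types in the same libraries moved in part with the knockdown. All 7 markers of cycling progenitors (NPC) were lower at an adjusted p under 0.05, with a sum of 1023, 1024 and 1003 TPM in the controls and 463 TPM with knockdown. Of the 9 astrocyte markers 6 were tested, 2 were higher (Slc39a12 and Agt) and 0 lower, and their sum was 62.0, 66.1 and 61.6 TPM against 68.1 TPM. Of the 9 NSC markers 3 were tested, and Hopx was higher and Nes lower, with 191, 223 and 236 TPM of Nes in the controls and 150 TPM with knockdown. Among markers of neurons, Gad1 and Tubb3 were higher and Sox11 lower, and the interneuron sum was 12.3, 13.4 and 12.6 TPM against 23.4 TPM and that of later immature neurons 3.25, 3.13 and 4.27 TPM against 8.38 TPM. The ependymal marker Dynlrb2 was higher and the OPC marker Olig2 lower. The microglia, pericyte and endothelial sums were at or under 1.17 TPM in every library. In RNA of a whole culture, fewer cells of a type and less RNA per cell cannot be told apart, and the part of these shifts in the lipid genes was not tested.

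The lists of lipid genes were counted with knockdown in the same way, where 20% of all genes tested were higher and 21.7% lower. Of 10 receptors and regulators tested 5 were higher and 1 lower. Lrp4 (log2 0.98), Lrp10 (0.73) and Vldlr (0.47) were higher, as was Lrpap1. Of 8 transporters and lipases 4 were higher and 1 lower. The endothelial lipase gene Lipg went from 3.86, 5.14 and 4.90 TPM to 25.4 TPM (log2 2.24), Pltp had a log2 difference of 0.82, Abca7 0.57 and Abca3 0.53, and the lipoprotein lipase gene Lpl was lower (-0.66).

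Of 10 genes for handling cholesterol within the cell 5 were higher and 3 lower, the latter near the share of all genes tested that were lower, 21.7%. The cholesterol-esterifying Soat1 (-1.32) and Stard4 (-0.64) were lower with Osbp, and the lysosomal lipase gene Lipa (0.61), the lipid droplet gene Plin2 (0.54), Stard3, Npc1 and Npc2 were higher. Of 8 Mfge8 partners 5 were higher and 0 lower, with Gas6, a bridging ligand of the TAM receptors (1.10), the integrin gene Itgb5 (1.03), Axl (0.40), Itgav (0.34) and Pros1. Of 6 sterol-sensing receptors and oxysterol enzymes 1 was higher, the liver X receptor gene Nr1h2 (0.27), and of 2 other apolipoproteins tested 0 were called. The median log2 difference was 0.28 for receptors, 0.40 for transporters and lipases, 0.28 for cholesterol handling, 0.31 for Mfge8 partners, 0.12 for sterol sensing and -0.72 for the 2 apolipoproteins, where all genes had 0.00. Stard4 was lower both in adult NSC-like cells and with knockdown, whereas Vldlr was lower in adult NSC-like cells and higher with knockdown. Each rested on 3 UMIs in NSC-like cells at 24w, and the 2 data sets were not tested against each other. Without the filter on low values, Lrp4, Abca7, Axl and Itgav missed the threshold, with adjusted p-values of 0.0893 to 0.224.

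The scATAC-seq data were read at the peak over each start, from 1 kb before to 1 kb after it, in 8788 nuclei at P5, 12638 at 12w and 6041 at 24w. Nuclei took their class from the scRNA-seq cells of the same age, which gave 343, 329 and 89 NSC-like nuclei and 3087, 503 and 131 AS-like nuclei. The marker genes of a class were most open in that class in 25 of 27 groups of a class and an age. Levels are CPM of all counts in peaks of the class. Peaks were called on each library separately, so that a start could have a wider peak at one age, and the width of the peak, or the ratio per kb of peak, is given for Apoe, Apod, Abca1, Abcg1 and Lcat, whose widths moved the most. Counts outside the peaks of a library were not available. Where widths differed, neither the ratio by counts nor that per kb therefore compared the same bases. PC-like nuclei numbered 256, 6421 and 4376 in the order of age.

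In NSC-like nuclei the start of Apoe had 28.2, 57.0 and 73.0 CPM in the order of age, ratios of 2.02 (1.75 to 2.33) and 2.59 (2.2 to 3.04), where 2.42% of start regions were higher by the rule of size and 4.00% lower. Its peak was 2463 bases wide at P5, 4287 at 12w and 4356 at 24w, and per kb of peak the ratios were 1.16 and 1.46. In AS-like nuclei Apoe had 41.1, 70.9 and 100 CPM, ratios of 1.72 and 2.43, or 0.990 and 1.38 per kb. The added width lay upstream of the start.

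The start of Apod was the other one to meet the rule in NSC-like nuclei, from a low level. It had 0.344, 11.8 and 14.5 CPM, the first from 4 counts, and ratios of 34.3 (13.0 to 128) and 42.3 (15.7 to 160). The peak had 804, 3690 and 4466 bases, and per kb the ratios were 7.46 and 7.61. By counts, Apod met the rule in 8 of the 9 classes, and the share of starts that were higher was 2.85% in AS-like, 2.92% in IMN1-like and 3.36% in IMN2-like nuclei. The exception was the NPC-like class, where 2.16% of starts were higher. Its ratios were 8.44 (4.79 to 15.9) and 5.80 (2.69 to 12.6), or 1.84 and 1.04 per kb, but its 16 counts at 24w were under the minimum of 20. Per kb of peak, the ratios stayed past 2-fold at both adult ages in NSC-like and IMN1-like nuclei (2.37 and 2.32) and in none of the other 7 classes. In both of these classes the 24w counts scaled for width were under the minimum of 20. The ratios per kb were 4.05 and 1.23 in AS-like, 1.97 and 2.27 in IMN2-like and 1.83 and 1.76 in EDC-like nuclei. They were 1.25 and 0.493 in OL-like nuclei, and 1.78 at 12w in VSMC-like nuclei. EDC-like and VSMC-like nuclei held 3 and 2 counts at P5. In PC-like nuclei, where 6.22% of starts were higher, the ratios for Apod were 3.42 and 3.99, and per kb of peak they were 0.745 and 0.719. The counts at the starts of the 7 pericyte markers, not scaled for width, were also higher at both adult ages than at P5. Their sum in NSC-like nuclei was 116, 304 and 274 CPM, lower at 24w than at 12w, unlike Apod. It was 98.7, 388 and 329 CPM for AS-like, 92.5, 282 and 248 CPM for IMN2-like and 349, 1654 and 1797 CPM for PC-like nuclei. The sum was higher at both adult ages in all 9 classes, and its part in the Apod counts was not tested. NSC-like cells held 1, 4 and 8 UMIs of Apod RNA, and free RNA was predicted at 129% of that level at 12w and 34.7% at 24w.

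The starts of Clu, Lcat and Mfge8, whose RNA was higher in adult NSC-like cells, did not meet the rule in NSC-like nuclei. Clu had 81.7, 84.9 and 122 CPM, ratios of 1.04 (0.943 to 1.15) and 1.5 (1.34 to 1.67). Lcat had ratios of 1.06 and 1.35, or 1.01 and 1.71 per kb, over a peak of 2709, 2856 and 2146 bases, and Mfge8 of 1.09 and 1.78, against a median over all starts of 0.885 and 0.951. Abca1 had 46.3, 40.9 and 58.2 CPM over a peak of 2318, 3039 and 2869 bases, ratios of 0.884 (0.771 to 1.01) and 1.26 (1.07 to 1.47), or 0.674 and 1.02 per kb. The ratios for Abca1 in AS-like nuclei, where its RNA was lower, were 1.13 and 1.28, or 0.859 and 1.03 per kb of peak. The lower level of Abca1 RNA in adult AS-like cells thus went with no 2-fold lower count at its start. Lrp1 had 128, 153 and 150 CPM in NSC-like nuclei, and Abcg1 10.1, 13.2 and 9.86 CPM. The Abcg1 peak had 2313, 4257 and 4127 bases, and its ratios of 1.31 and 0.980 in NSC-like nuclei were 0.711 and 0.549 per kb. In PC-like nuclei the ratios for Abcg1 by counts were 0.774 and 0.768, where the median over all starts was 0.711 and 0.717. Per kb they were 0.420 and 0.431, a measure that was not computed over all starts.

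Outside these classes the starts of Clu, Lcat and Apoe met the rule in 4 more pairs. Clu was lower in PC-like nuclei, with ratios of 0.464 and 0.323, where 15.5% of starts were lower and the median over all starts was 0.711 and 0.717. In VSMC-like nuclei Clu had ratios of 0.403 and 0.321, against a median of 0.693 and 0.701. It missed the rule there by too few counts at P5. Lcat was higher in OL-like nuclei (2.93 and 3.04; background 3.06%) and in VSMC-like nuclei (3.98 and 4.35; background 9.57%), the latter against 4 counts at P5. Per kb of peak these were 2.78 and 3.84 in OL-like nuclei and 3.78 and 5.49 in VSMC-like nuclei. Apoe met the rule by counts in EDC-like nuclei (2.15 and 2.94; background 4.79%) and not per kb of peak, where the ratios were 1.24 and 1.66.

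**Figure D4:**
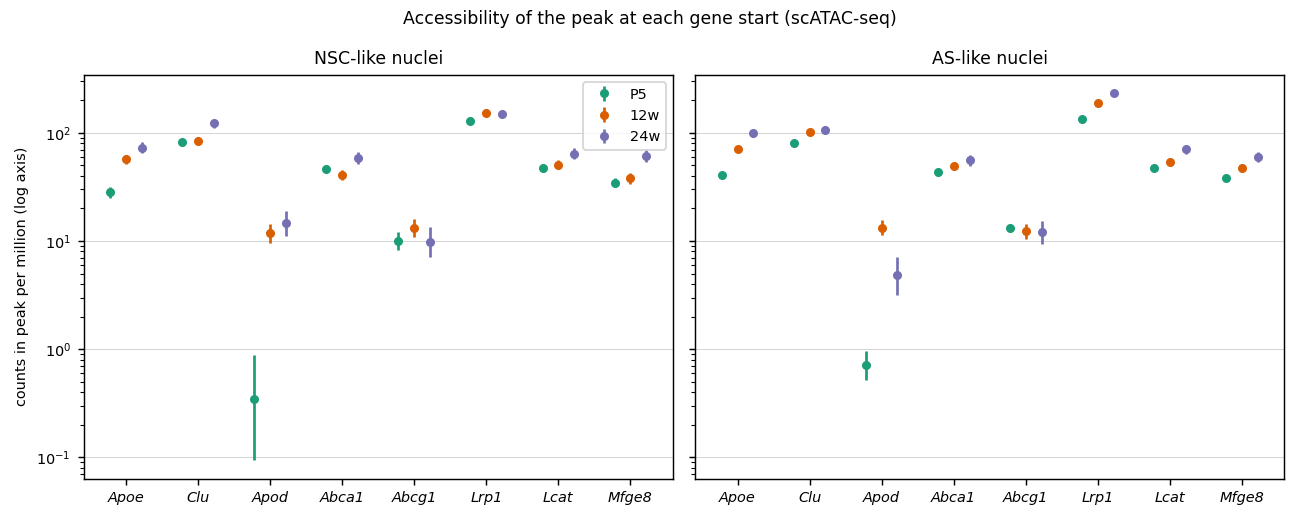
Counts in the peak over the start of each of the 8 genes, as CPM of all counts in peaks (log axis), in NSC-like and AS-like nuclei at 3 ages, with 95% counting intervals. Counts of Apoe and Apod are higher at 12w and 24w than at P5 in both classes, over peaks that were wider at both adult ages (the ratio of Apoe in AS-like nuclei at 12w was 0.990 per kb), and the points of Clu, Lcat and Mfge8 lie within 2-fold of P5.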

How the data were processed

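The members and the gene lists were chosen with earlier results of these data known. For scRNA-seq, the deposited UMI counts per gene and barcode were made by the authors with Cell Ranger 2.2.0 on mm10, per the processing notes, which also name Seurat 4.1.0. The deposited scATAC-seq files hold counts per peak and barcode, with peaks called on each library by the authors. For RNA-seq of cultured cells the deposited TPM were computed by the authors from reads aligned with STAR, and the lengths used are in a companion file.

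Barcodes needed 1000 UMIs, 500 genes and no more than 10% of UMIs from mitochondrial genes, and doublets were removed with scrublet (932, 80 and 3 cells in the order of age, so that the caller removed few at 24w). The deposited P5 barcodes began at 1495 UMIs and those of both adult ages at 1 UMI. The lowest count in force thus differed between P5 and the adult ages. Libraries were integrated and clustered with Seurat 5.3.0 (2000 variable genes, 30 dimensions, resolution 0.8), and clusters were named from fixed markers. UMIs were summed per class and age. Intervals are exact Poisson, binomial or conditional binomial, at 95%, and cover counting error only. Nuclei with 3000 to 100000 counts took their class by label transfer at a score of at least 0.5.

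TPM were tested with limma 3.58.1 (eBayes with trend) on log2(TPM + 1) over genes with a mean of at least 1 TPM, with Benjamini-Hochberg adjustment, and 99.9% of values came out as whole reads (within 0.05 of a read, 20040058 to 21493328 reads per library), on which edgeR 4.0.16 and DESeq2 1.42.0 were run as alternatives. Libraries were grouped by exact match to the study's table, whose values were not used otherwise. Steps across genes were tested on simulated data. The text names the 8 genes, Setd8 as a check, list genes past the rule of size in NSC-like cells or past limma (at most 4 per list, by size), and the 3 genes most like each member. Some genes that this rule selects are not reported here. Lrpap1, Abca3, Stard3, Npc1, Npc2, Osbp and Pros1 were outside this rule and were named after their values were seen, as were Slc39a12, Agt, Hopx, Nes, Gad1, Tubb3, Sox11, Dynlrb2 and Olig2 among the markers. The 10 samples of CUT&RUN, bulk ATAC-seq and the 2 files of symbols and lengths gave no expression values.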

Additional observations from a re-analysis of the deposited data

Results flagged for a closer look

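Apoe and Lcat were in opposite directions between cell classes at the same age. The ratio of Apoe at 24w to P5 was 3.01 in NSC-like cells, 0.407 in IMN1-like cells and 0.404 in PC-like cells. The ratio of Lcat was 2.97 in NSC-like cells, 2.44 in AS-like cells and 0.312 in NPC-like cells, where it rested on 2 UMIs at 24w. With 1 library per age, the difference between classes was not tested. The predicted free RNA equalled 129% of the Apoe level of IMN1-like cells and 67.7% of the Lcat level of NPC-like cells at 24w, against 3.73% and 2.67% in NSC-like cells. None was predicted for vascular classes such as PC-like cells. The free RNA itself held 6569 CPM of Apoe at 12w and 5399 CPM at 24w, and its part in PC-like cells was not tested.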

How the results depend on the processing

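No paired analysis was possible because the knockdown group held 1 library, so that the groups shared fewer than 2 replicate numbers. The count of gene and class pairs past the rule of size was 13 of 72 in scRNA-seq. It was 20 of 56 with the predicted free RNA subtracted, against 10 in the same classes before. Free RNA could be subtracted from the adult libraries alone, and 9 of the 10 calls added were lower. The count was 23 at 1.5-fold, and it ran from 10 to 16 under the other alternatives. Apoe, Clu, Lcat and Mfge8 in NSC-like cells, Clu, Lcat and Abca1 in AS-like cells and Apoe in IMN1-like cells met the rule under all 11 alternatives. Of these, the rule at 1.5-fold could not undo a call made at 2-fold. The subtraction of free RNA could only lower the adult Apoe of IMN1-like cells. Lcat in NPC-like cells missed the 2-fold rule without cells that held haemoglobin UMIs (0.36 and 0.65), and Clu in EDC-like cells with scaling by the median ratio (1.99 and 2.11).

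With knockdown, 6 of the 8 genes passed the threshold. Without the filter on low values, 2 did, and 2234 genes did in all against 5300. Leaving out each control in turn, the range was 6 to 6. All 6 also passed with another pseudocount, by edgeR and by DESeq2, where the adjusted p of Lrp1 was 0.0444.

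In scATAC-seq 13 pairs met the rule, and 6 did at a label score of at least 0.7. Per kb of peak, with the minimum of 20 applied to the counts scaled for width, 4 did. The per kb setting was chosen after seeing the data, as were the largest cluster alone and the second clustering. The 4 were Lcat in OL-like and VSMC-like nuclei and, as lower, Clu and Abcg1 in PC-like nuclei, the last not called by counts. All calls of Apoe and Apod were lost, those in NSC-like nuclei included. No called value of scRNA-seq or RNA-seq changed direction under any alternative run. In scATAC-seq direction was checked in NSC-like and AS-like nuclei alone, where no called value changed it. Outside them, Apod was called higher by counts in PC-like and OL-like nuclei. Per kb of peak its ratios were 0.745 and 0.719 in PC-like nuclei, and 0.493 at 24w in OL-like nuclei. The number of libraries limits every age comparison, and few UMIs limit Abca1, Abcg1 and Apod in NSC-like cells at 24w.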
